A study of Mus musculus with 7 samples.

Results

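The cytosolic ribosomal protein genes encode the protein part of the ribosome, the particle that translates mRNA. They were taken by name, as gene symbols that begin with Rpl or Rps followed by a number, Rplp or Rpsa, without the S6 kinases, and with a mean of at least 10 CPM over the 7 libraries. CPM is the number of reads of a gene scaled to a common library total. Of 26607 listed genes, 89 matched the name and 82 passed the minimum. These were 45 core genes of the large subunit, including the 3 genes of the P-stalk, 31 core genes of the small subunit, 4 paralog symbols (Rpl22l1, Rps27l, Rpl7l1 and Rpl36al), 1 pseudogene symbol (Rpl34-ps1) and Rps19bp1, whose product binds a ribosomal protein and is not a ribosomal subunit. The members just inside the minimum were Rpl29 at 20.1 CPM, Rps19bp1 at 27.9 and Rpl34-ps1 at 35.9, and those just outside were Rps19-ps3 at 1.22, Rpl39 at 0.0783 and Rpl3l at 0.0663. The other symbols outside were Rpl39l with 1 read in all, and Rpl10l, Rplp2-ps1 and Rps4y2 with no read.

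The cells were C2C12, an established line of mouse myoblasts that form multinucleated myotubes in low serum. All libraries came from this 1 line, so the groups differ in treatment and not in genotype. The EPS group (n = 4, replicates 1 to 4) received electrical pulse stimulation, a culture model of muscle contraction, starting 3 days after differentiation, for 24 h at 1 Hz and followed by 1 h of rest. The control group (n = 3, replicates 1, 3 and 4) received no treatment. The labels do not say whether replicates were separate cultures, so that P-values measure the spread between these libraries, which may be technical.

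A ribosome holds a single copy of most of its proteins, and cells keep the supply of the subunit proteins balanced, degrading those that are not assembled. The mRNAs of these genes mostly begin with a C and a run of pyrimidines, the 5′ terminal oligopyrimidine (5′TOP) tract, through which mTORC1 signaling and the protein Larp1 control their translation and stability. In muscle, ribosome supply limits the capacity for protein synthesis, and growth of muscle after repeated loading is accompanied by ribosome production.

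To show the start of these mRNAs, the annotated start sites of RefSeq (GRCm38.p6) were read for the 60 members in the promoter table. A tract was counted where a C lay within 3 bases of an annotated start and at least 4 further C or T followed it without a break, on the strand of the gene only. Such a tract was found in 25 of the 60 members, or 41.7%, and in 3651 of the 27025 genes of the table, or 13.5%. The windows below hold 15 bases on each side of the annotated start, and the capitals mark the tract as far as the window reaches. The tract of Rpl27a, of 18 bases, runs past the end of its window. The first 5 belong to members that were higher in the EPS libraries (Rpl14, Rpl28, Rps18, Rpl27a, Rplp2), Rps6 is the substrate of the S6 kinases, and Rpl18, Rpl38 and Rpl22l1 had log2 fold changes of 0.09, 0.10 and -0.21. Rplp0, Rps28 and Rps3 are shown as members in which no tract was found by these letters in this window.
Rpl14 (chr9:120571502-120571531, plus strand): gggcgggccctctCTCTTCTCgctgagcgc
Rpl28 (chr7:4792950-4792979, plus strand): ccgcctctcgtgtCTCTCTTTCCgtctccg
Rps18 (chr17:33955651-33955680, minus strand): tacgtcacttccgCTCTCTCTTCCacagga
Rpl27a (chr7:109519180-109519209, plus strand): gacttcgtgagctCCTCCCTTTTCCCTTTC
Rplp2 (chr7:141447636-141447665, plus strand): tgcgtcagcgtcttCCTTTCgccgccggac
Rps6 (chr4:86857353-86857382, minus strand): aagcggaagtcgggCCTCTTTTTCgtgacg
Rpl18 (chr7:45718056-45718085, plus strand): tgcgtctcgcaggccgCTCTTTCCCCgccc
Rpl38 (chr11:114668565-114668594, plus strand): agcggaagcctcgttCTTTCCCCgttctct
Rpl22l1 (chr3:28805493-28805522, plus strand): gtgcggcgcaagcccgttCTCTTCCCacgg
Rplp0 (chr5:115559452-115559481, plus strand): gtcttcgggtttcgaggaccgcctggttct
Rps28 (chr17:33824548-33824577, minus strand): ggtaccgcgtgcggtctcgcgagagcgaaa
Rps3 (chr7:99483695-99483724, minus strand): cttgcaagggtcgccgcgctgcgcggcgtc
A tract that begins farther than 3 bases from the annotated start was not counted, so members without a counted tract may still carry one. The comparison of the sets below therefore cannot separate 5′TOP mRNAs from others. Members with and without a counted tract had close values. The median log2 fold change of EPS against control was 0.48 in the 25 members with a tract and 0.50 in the 35 without, and 8 and 14 of them, respectively, were higher at P under 0.05, against 8.40% of all genes tested.

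The recovered reads were between 16616917 and 22120641 per library. The fewest reads of a member in a library were 237, for Rpl29 in control replicate 1, which gives a counting error of 6.5%. Control replicate 4 stood apart from the other libraries before any comparison: 359 genes had 1 to 5 reads there against 2670 to 3181 in the others, and 14014 genes were above 0 against 16144 to 16984. The 50 highest genes took 19.3% to 21.4% of the reads in the control libraries and 14.5% to 18.8% in the EPS libraries. Against the deposited scale, the median gene with a mean of at least 1 CPM was higher in the EPS libraries by 0.10 (log2), and this shift was -0.02 after median-of-ratios scaling. The log2 fold changes given here are on the deposited scale, from limma on log2(CPM + 1), and understate the change of low genes.

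Ribosomal protein mRNA made up a larger share of 3 of the 4 EPS libraries than of any control library. The 82 members together took 2.34%, 3.04% and 3.52% of the reads of the control libraries (replicates 1, 3 and 4, an order kept throughout). In the EPS libraries (replicates 1 to 4) they took 4.26%, 4.46%, 2.73% and 4.69%. EPS replicates 1, 2 and 4 were above all controls, whereas EPS replicate 3 lay between control replicates 1 and 3. The summed CPM was 29680 ± 5921 (SD, n = 3) in the control group and 40353 ± 8848 (SD, n = 4) in the EPS group, a ratio of 1.36. The ratio was 1.24 after median-of-ratios scaling.

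Both subunits contributed. The 31 small-subunit genes summed to 8705, 11350 and 13214 CPM in the control libraries and to 16445, 16921, 10225 and 18424 CPM in the EPS libraries, a ratio of group means of 1.40. The ratio was 1.34 for the 45 large-subunit genes and 1.26 for the P-stalk genes. The small-subunit sum divided by the large-subunit sum was 0.604, 0.610 and 0.620 in the control libraries and 0.642, 0.624, 0.609 and 0.660 in the EPS libraries, so that the groups overlapped only through EPS replicate 3.

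**Figure D1:**
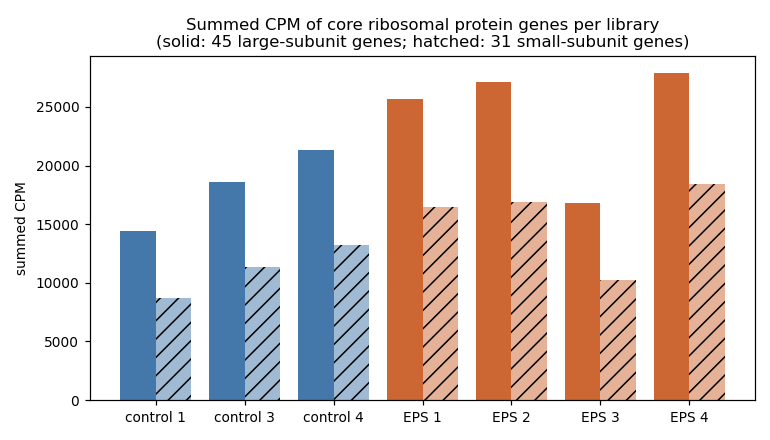
Summed CPM (vertical axis) of the 45 large-subunit genes (solid bars) and the 31 small-subunit genes (hatched bars) in each of the 7 libraries, with control libraries in blue and EPS libraries in orange. EPS replicates 1, 2 and 4 are above every control in both sums, and EPS replicate 3 lies among the controls.

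Gene by gene, the difference was broad and modest. The log2 fold change was above 0 in 79 of 82 members, or 96.3%, against 63.3% of the 19144 genes tested and 64.2% of genes with a mean of at least 10 CPM, and its median was 0.50 (range -0.21 to 1.05) against 0.04 for all genes tested and 0.10 for genes with a mean of at least 10 CPM. At an unadjusted limma P under 0.05, 31 members (37.8%) were higher in the EPS libraries, against 8.40% of all genes tested and 8.61% of genes with a mean of at least 10 CPM, and 0 members were lower, against 3.21%. No member passed an adjusted p under 0.05 in limma, where 0.141% of all genes tested did, and the smallest adjusted p of a member was 0.208 (limma). After median-of-ratios scaling, 18 members were higher at P under 0.05, against 5.93% of all genes tested. With the replicate number as a block, 3 of 82 members were higher, a share below the 5.52% of all genes in that fit. EPS replicate 2 has no control of its number and did not enter the difference in that fit. The median was 0.41 there, as it was without EPS replicate 2, and fewer libraries were left to measure the spread. edgeR on the recovered reads gave 27 members higher at P under 0.05 (all genes, 5.60%) and 0 with an adjusted p under 0.05 (all genes, 1.51%). DESeq2 gave 31 (all genes, 5.19%) and 1, the latter being Rpl14, where 3.39% of the genes with an adjusted p passed. A limma P under 0.01 together with a change over 2-fold was reached by 0 members and by 1.41% of all genes tested. Among the core genes, 15 of 31 of the small subunit and 15 of 45 of the large subunit were higher at P under 0.05.

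**Figure D2:**
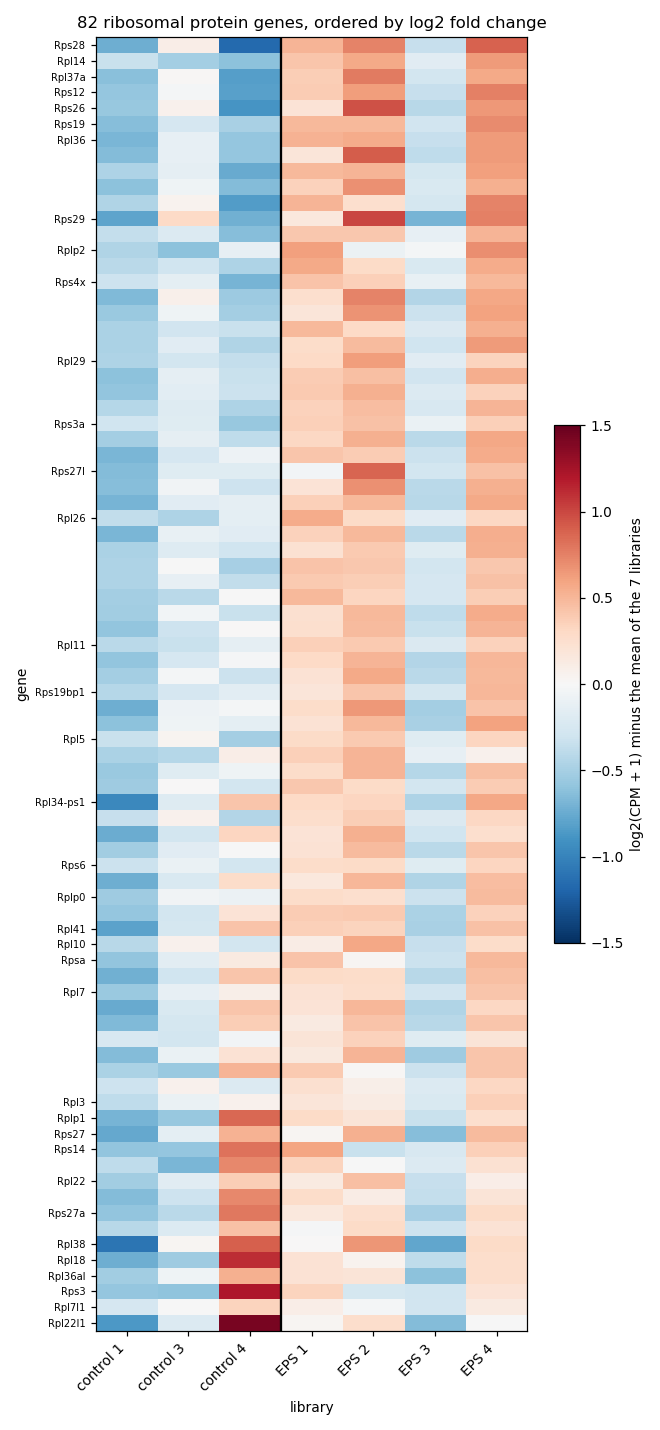
Level of each of the 82 genes in each library, as log2(CPM + 1) minus the gene's mean over the 7 libraries (blue below, red above), with genes ordered by log2 fold change from the highest at the top, the labels of members named by the rule and a line between the 3 control and 4 EPS libraries. EPS replicates 1, 2 and 4 are mostly red, EPS replicate 3 mostly blue, and control replicate 4 runs from blue at the top to red at the bottom.

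How far the groups separated depended on EPS replicate 3. It was the lowest EPS library for 80 of the 82 members, against 29.0% of all genes tested and 36.8% of genes with a mean of at least 10 CPM. EPS replicates 1, 2 and 4, a set chosen after these values were seen, were all above every control library for 56 members, against 12.0% of all genes tested and 14.1% of genes with a mean of at least 10 CPM. With EPS replicate 3 included, the groups did not overlap for 9 members (11%), a share near the 7.76% of all genes tested and the 8.34% of genes with a mean of at least 10 CPM. Those 9 were Rpl14, Rps3a, Rps4x, Rpl28, Rps16, Rpl29, Rplp2, Rpl8 and Rps2. Without EPS replicate 3, 52 members were higher at P under 0.05 (all genes, 8.89%), and the median log2 fold change was 0.70. Without control replicate 1, the library with the lowest sum, 6 were higher (all genes, 7.55%), a share of members near that of all genes. Leaving out EPS replicate 1, 2 or 4 left 15, 17 and 14, against 6.79%, 7.17% and 6.46% of all genes.

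Rpl14, a large-subunit protein gene on chr9:120571444-120574654 (GRCm38), was called higher at P under 0.05 in the reported fit and in each of the 17 alternative fits, and it was the one member of which this held. It measured 389, 344 and 321 CPM in the control libraries and 656, 728, 435 and 763 CPM in the EPS libraries. All EPS libraries were above all controls, and EPS replicate 3 was nearest to them. The log2 fold change was 0.85 ± 0.24 (SE; limma P = 0.00611, adjusted p = 0.208; exact permutation p = 0.0571, two-sided). The exact permutation tests given here have 35 arrangements of 3 and 4 libraries, so that their smallest possible p is 0.0286.

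Among small-subunit genes, Rps3a, on chr3:86137940-86142702, whose product lies where mRNA leaves the subunit, measured 146, 159 and 121 CPM in the control libraries and 232, 246, 168 and 231 CPM in the EPS libraries. The groups did not overlap, and the log2 fold change was 0.62 ± 0.18 (SE; limma P = 0.00787; exact permutation p = 0.0571). Rps4x, an X-linked gene, measured 261, 291 and 198 CPM against 434, 412, 298 and 452 CPM, again without overlap, although control replicate 3 and EPS replicate 3 were close (log2 fold change 0.67). Rps19, the gene most often mutated in Diamond-Blackfan anemia, measured 171, 224 and 190.2 CPM against 375, 374, 219 and 437 CPM, and EPS replicate 3 was below control replicate 3. Its log2 fold change was 0.81 ± 0.25 (SE; limma P = 0.00986; exact permutation p = 0.0857). Rps3a and Rps19 had an adjusted p of 0.228 and 0.238 in limma.

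Beside Rpl14, the largest log2 fold changes were those of Rps28, Rpl37a, Rps12 and Rps26. Rps28, on chr17:33819027-33824562, whose product sits near the mRNA exit, measured 151, 268 and 111 CPM in the control libraries and 356, 421, 197 and 465 CPM in the EPS libraries. Its log2 fold change was 1.05 ± 0.36 (SE; limma P = 0.0187; exact permutation p = 0.0857), the control libraries spread more than 2-fold, and EPS replicate 3 was below control replicate 3. Rps26 measured 208, 325 and 167 CPM against 358, 602, 232 and 487 CPM (log2 fold change 0.81). Rps12 measured 406, 594 and 345 CPM against 794, 939, 477 and 1026 CPM (log2 fold change 0.83). For each of these small-subunit genes control replicate 4 was the lowest library of all 7 and control replicate 3 the highest of the controls. Rpl37a, a zinc-binding protein of the large subunit, followed the same order with 214, 335 and 187 CPM against 431, 569, 274 and 491 CPM (log2 fold change 0.84).

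Of the other members with the smallest P, Rpl36 measured 137, 203 and 147 CPM in the control libraries and 317, 326, 174 and 345 CPM in the EPS libraries (log2 fold change 0.81; limma P = 0.0146; exact permutation p = 0.0857). Rpl26, a protein near the exit of the nascent peptide tunnel, measured 43.7, 40.9 and 51.3 CPM against 84.1, 69.8, 50.4 and 71.0 CPM (log2 fold change 0.58; limma P = 0.0149; exact permutation p = 0.0857). In both, EPS replicate 3 was within the control range and the other EPS libraries were above it. Rpl29, the member of lowest mean, measured 13.8, 15.8 and 14.9 CPM against 24.1, 30.4, 17.0 and 24.7 CPM, without overlap (log2 fold change 0.64; limma P = 0.0174; exact permutation p = 0.0571).

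**Figure D3:**
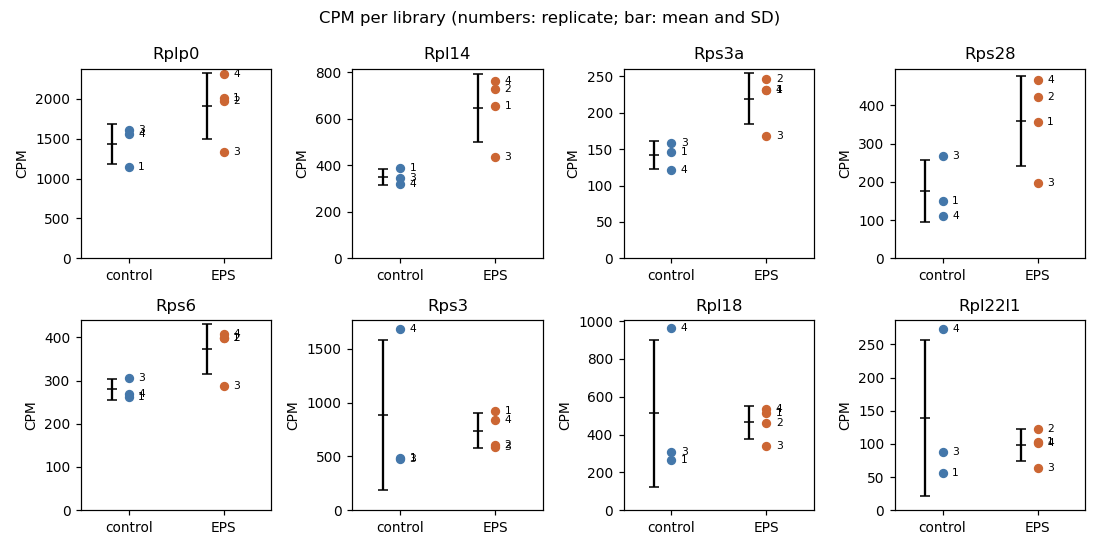
CPM of 8 members in the control and EPS libraries, each point a library with its replicate number, and the bar beside the points the mean and SD (n = 3 control, n = 4 EPS). Rpl14 and Rps3a do not overlap between groups, and control replicate 4 is the highest library for Rps3, Rpl18 and Rpl22l1.

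The genes with defined roles in assembly, signaling and the active centers of the ribosome gave a mixed picture. Rplp0, the base of the P-stalk that recruits translation factors, is also known as 36B4, the mRNA used by the study for normalization of quantitative RT-PCR. It lies on chr5:115559467-115563727 and had the highest mean CPM of the members. It measured 1149, 1606 and 1561 CPM in the control libraries and 2015, 1976, 1327 and 2309.9 CPM in the EPS libraries. EPS replicate 3 was below control replicates 3 and 4, and the log2 fold change of 0.39 ± 0.34 (SE; limma P = 0.280; exact permutation p = 0.143, two-sided) was within the spread between libraries. Its stalk partner Rplp2 measured 213, 189.7 and 266 CPM against 445, 273, 286 and 471 CPM, without overlap (log2 fold change 0.69; limma P = 0.0207; exact permutation p = 0.0857). Rplp1 measured 488, 532 and 1433 CPM against 961, 905, 626 and 943 CPM, so that control replicate 4 was the highest library and the other controls the lowest.

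Rpl5 and Rpl11 join the 5S rRNA in a particle that also restrains Mdm2 when ribosome assembly fails. Rpl11 measured 327, 344 and 394 CPM in the control libraries and 553, 569, 373.5 and 550.2 CPM in the EPS libraries (log2 fold change 0.51; limma P = 0.0371; exact permutation p = 0.0857). Rpl5 measured 364, 472 and 323 CPM against 562, 606, 405 and 574 CPM (log2 fold change 0.47; limma P = 0.0626; exact permutation p = 0.0857). In both genes EPS replicate 3 alone overlapped the controls.

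Rps6, whose protein is phosphorylated by the S6 kinases downstream of mTORC1, measured 262, 306 and 270.0 CPM in the control libraries and 398.2, 398.4, 287.6 and 408 CPM in the EPS libraries (log2 fold change 0.40; limma P = 0.0556; exact permutation p = 0.0857). The spread of its control libraries was small, and EPS replicate 3 lay among them. Rpl3 and Rpl10, which reach toward the peptidyl transferase center, had log2 fold changes of 0.25 (exact permutation p = 0.257) and 0.37 (exact permutation p = 0.200). Rpsa, a small-subunit protein also known as the laminin receptor, measured 998, 1348 and 1649.6 CPM against 2036, 1535, 1208 and 2114 CPM (log2 fold change 0.37; limma P = 0.322; exact permutation p = 0.257), with EPS replicates 2 and 3 inside the control range. Rps27a, made as a fusion with ubiquitin, measured 298, 337 and 778 CPM against 502, 535, 316 and 547 CPM, and control replicate 4 was its highest library.

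A group of members was far higher in control replicate 4 than in the other controls. In 10 of 82 members (12.2%, against 4.14% of all genes tested and 5.57% of genes with a mean of at least 10 CPM) the level in control replicate 4 was over 2-fold above the mean of control replicates 1 and 3. These included Rpl22l1 (3.82-fold), Rps3 (3.50-fold), Rpl18 (3.35-fold), Rplp1 (2.81-fold), Rps14 (2.64-fold), Rpl38 (2.52-fold), Rps27a (2.45-fold), Rpl13a (2.40-fold) and Rpl21 (2.03-fold). In 31 members control replicate 4 was below that mean, the lowest being Rps28 at 0.533 of it. Around the family level, the SD over members was 0.52 (log2) in control replicate 4 and between 0.14 and 0.24 in the other libraries, and 29 members deviated by more than 0.5 there against 5 or fewer in any other library. Over the 82 members, the shift of control replicate 4 was weakly related to transcript length (Spearman's rho -0.13), GC content (0.09) and the share of the transcript found in other genes (0.05). These correlations are across genes of the same libraries and are given as a description.

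**Figure D4:**
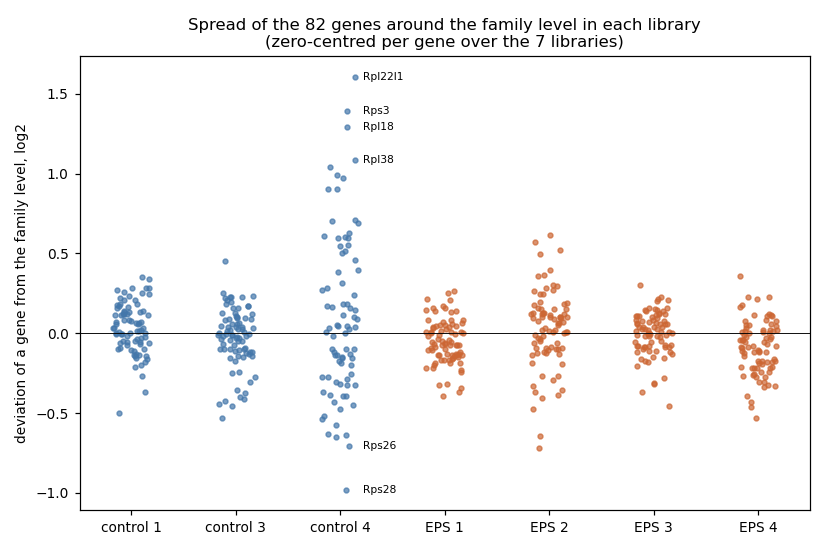
Deviation (log2, vertical axis) of each of the 82 genes from the family level in each library, centered per gene over the 7 libraries, with control libraries in blue and EPS libraries in orange. Control replicate 4 spreads from -0.98 (Rps28) to 1.61 (Rpl22l1), and in the other libraries the farthest deviation is -0.72 (Rps14 in EPS replicate 2).

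The members with the smallest difference between the groups were mostly those high in control replicate 4. Rps3, on chr7:99477896-99483738, which lines the mRNA entry site, measured 485, 479 and 1688 CPM in the control libraries and 921, 607, 590.4 and 839 CPM in the EPS libraries. Every EPS library was above control replicates 1 and 3 and below control replicate 4. The log2 fold change was -0.01 with all libraries and 0.59 without control replicate 4. Rpl18 measured 267, 308 and 961 CPM against 516, 462, 340.1 and 536 CPM, the same arrangement (log2 fold change 0.09). Rps14 measured 539, 546 and 1431 CPM against 1235, 645, 689.5 and 1043 CPM, and Rpl38, which has been linked to selective translation of Hox mRNAs, 89.2, 195 and 358 CPM against 192, 302, 110.5 and 234 CPM.

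Without control replicate 4, the log2 fold change was above 0 in all 82 members, the median was 0.59, and 27 members (32.9%, against 7.37% of all genes tested and 8.33% of genes with a mean of at least 10 CPM) were higher at P under 0.05. Of those 27, 18 were among the 31 called with all libraries. All 4 EPS libraries were above both control replicates 1 and 3 in 20 members (24.4%), against 13.1% of all genes tested and 15.8% of genes with a mean of at least 10 CPM.

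Relative to the median member of each library, which removes the shared level of the family, 1 member (1.22%) was called apart at P under 0.05. Over all genes tested, whose own level was not subtracted, the share was 21.5%. The fit draws its error partly from all genes, so members had similar SEs, from 0.336 (Rpl26) to 0.438 (Rplp0). These SEs and P do not measure the spread of a single member. How many members stood apart cannot be decided from them. The member called was Rpl22l1, on chr3:28805436-28807424, a paralog of the RNA-binding protein gene Rpl22. It measured 55.4, 87.9 and 274 CPM in the control libraries and 103, 122, 64.3 and 101 CPM in the EPS libraries. The value relative to the family was -0.75 ± 0.34 (SE; adjusted p = 0.195 in limma), and it rested on control replicate 4: the log2 fold change of Rpl22l1 was -0.21 with all libraries and 0.44 without that library. The next members in order of P were Rpl7l1 at -0.59, Rpl36al at -0.51 and, on the other side, Rps28 at 0.50, with an adjusted p of 0.209, 0.246 and 0.270 in limma.

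Some ribosomal proteins have a paralog that can take their place in the particle. Whether the products of the paralogs below do so was not tested, and a ratio of mRNAs does not measure exchange in the ribosome. A ratio of paralog to partner within a library does not depend on its scaling. Of 8 pairs, 3 had both genes above the minimum of 1 CPM. Rpl7l1, a Rpl7-like protein, measured 103, 123 and 155 CPM in the control libraries and 132, 121, 100.4 and 135 CPM in the EPS libraries, and Rpl7 measured 646, 869.9 and 1010.3 CPM against 1101, 1139, 778 and 1266 CPM. The log2 ratio of Rpl7l1 to Rpl7 was -2.64, -2.82 and -2.70 in the control libraries and -3.05, -3.23, -2.94 and -3.22 in the EPS libraries, without overlap. The difference was -0.39 (exact permutation p = 0.0571, two-sided; 0.171 after Benjamini-Hochberg adjustment over the 3 pairs), and it was between -0.45 and -0.35 in the alternatives.

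The log2 ratio of Rps27l to Rps27 differed by 0.35 (exact permutation p = 0.257, two-sided), and that of Rpl22l1 to Rpl22 by -0.40 (exact permutation p = 0.314, two-sided), or by 0.01 without control replicate 4. Rps27l, a target of p53, measured 56.8, 79.1 and 78.9 CPM in the control libraries and 86.8, 165, 74.1 and 122 CPM in the EPS libraries. The muscle paralog Rpl3l had at most 4 reads in any library, against a mean of 612 CPM for Rpl3, and Rpl39l had 1 read in all.

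Levels between genes were compared per kilobase of the shortest principal transcript of GENCODE M21 (GRCm38), which may not be the transcript that was counted. On this scale the highest members were Rpl41 at 2039 CPM per kilobase, Rplp1 at 1685, Rps14 at 1466, Rps12 at 1325, Rps15 at 1294 and Rplp0 at 1257. Among the lowest were Rps19bp1 at 33.3, Rpl29 at 34.5 and Rpl7l1 at 94.7 CPM per kilobase. Ribosomal protein mRNAs are short, with a median of 705 bases against 2960 for genes with a mean of at least 10 CPM, and the log2 fold change was weakly related to length over the members (Spearman's rho -0.12). After a correction of each library for length and GC content, 37 members were higher at P under 0.05, against 13.1% of the 12043 genes in that fit, while the median log2 fold change was lower, at 0.38, and 76 members were above 0.

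Many processed pseudogenes copy these mRNAs, and 34 of the 82 members shared more than 50% of their 100-base windows with another annotated transcript, up to 98.4% for Rps27 and Rpl34-ps1. How the authors treated reads that fit several genes is not given in the sources used here, so the levels of such members, and the low level of Rpl29 with 25 other genes holding parts of its sequence, are uncertain. Of the genes described above, Rps3 shared no window with another gene, Rpl14 36.9%, Rpl22l1 40.6% and Rps28 66.9%.

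Other genes of the pathway were described from lists. Among ribosomal proteins with other names, Fau had a log2 fold change of 0.48 and Gnb2l1 (also Rack1) of 0.29, and neither passed P under 0.05. Of 20 further 5′TOP genes, which encode elongation and initiation factors and related proteins, 1 (5%) was higher at P under 0.05, Eef1d, a share below the 8.40% of all genes tested. The log2 fold change was above 0 in 19 (95%, against 63.3% of all genes tested), and its median was 0.26. After median-of-ratios scaling, in edgeR and in DESeq2, 0 were higher and the median was 0.14, 0.16 and 0.14. With single libraries left out, between 0 and 3 were higher, with 3 without control replicate 3 (all genes, 10.2%) or EPS replicate 3 (all genes, 8.89%) and 2 without EPS replicate 2 (all genes, 7.17%). Of 36 ribosome biogenesis genes, 3 (8.33%) were higher and 0 lower, a share at the 8.40% of all genes tested. Their median was 0.06. It turned to -0.06 after median-of-ratios scaling, -0.04 after quantile normalization, -0.05 in edgeR and -0.06 in DESeq2. The median was -0.0071 without control replicate 3 and -0.0756 in edgeR without control replicate 4. Without control replicate 4, 5 were higher (all genes, 7.37%), and 1 was lower in edgeR, in DESeq2 and without control replicate 3, where 5.95%, 5.42% and 3.97% of all genes were lower. The 3 genes called with all libraries were Sbds (0.51), Nob1 (0.59) and Polr1c (0.62).

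Of 21 mTORC1, Myc and TOP regulators, 0 were higher and 1 (4.76%, against 3.21% of all genes tested) was lower at P under 0.05. The count of lower genes was 3 after median-of-ratios scaling, after quantile normalization, in edgeR and in DESeq2, where 4.96%, 4.98%, 5.95% and 5.42% of all genes were lower, with 1 at an adjusted p under 0.05 in DESeq2. It was 2 without control replicate 1 (all genes, 3.88%), and 2 genes were higher without control replicate 4 (all genes, 7.37%). Rps6kb1, which encodes S6 kinase 1, measured 98.8, 109.9 and 101 CPM in the control libraries and 78.8, 81.4, 73.5 and 71.1 CPM in the EPS libraries, without overlap (log2 fold change -0.43; limma P = 0.00803, adjusted p = 0.229; exact permutation p = 0.0286). EPS replicate 3 was low together with the other EPS libraries in this gene. No gene of these lists passed an adjusted p under 0.05 in limma.

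The 76 nuclear genes of the mitochondrial ribosome, a separate particle that translates mitochondrial mRNA, were also mostly higher in the EPS libraries. Their summed CPM was 1748, 2144 and 2406 in the control libraries and 2651, 3237, 2019 and 2962 in the EPS libraries, with EPS replicate 3 again between control replicates 1 and 3. The log2 fold change was above 0 in 72 of 76 (94.7%, against 63.3% of all genes tested), its median was 0.35, and 21 (27.6%, against 8.40%) were higher and 0 lower at P under 0.05. As with the cytosolic family, the count of 21 moved with single libraries, to 11 without control replicate 1, EPS replicate 2 or EPS replicate 4, to 14 without EPS replicate 1 and to 40 without EPS replicate 3, fits in which between 6.46% and 8.89% of all genes were higher. Mrpl14 had the smallest P, with 23.3, 27.1 and 25.8 CPM against 44.1, 62.1, 36.9 and 63.3 CPM (log2 fold change 0.96; limma P = 0.00162, adjusted p = 0.126; exact permutation p = 0.0571). With the replicate number as a block, 6 mitochondrial ribosomal protein genes were higher at P under 0.05 (all genes, 5.52%). At an adjusted p under 0.05, 1 of the 76 was called in edgeR (all genes, 1.51%) and 1 in DESeq2 (3.39%). Whether the families differed from each other was not tested.

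**Figure D5:**
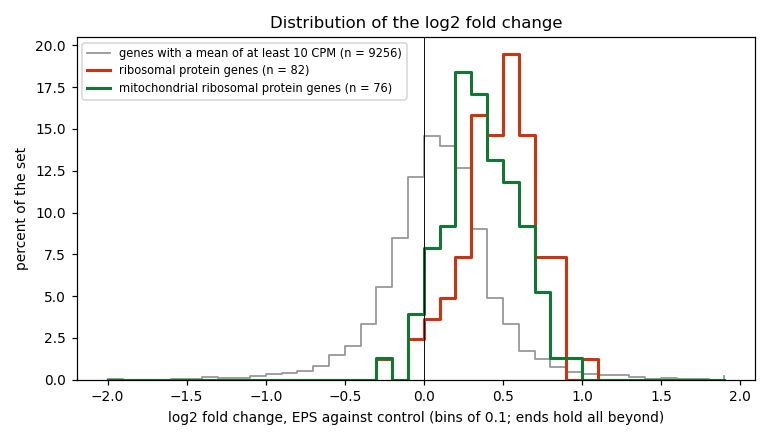
Distribution of the log2 fold change of EPS against control (horizontal axis, in bins of 0.1) as the percent of genes in each set (vertical axis), for the 82 ribosomal protein genes, the 76 mitochondrial ribosomal protein genes and the 9256 genes with a mean of at least 10 CPM. The medians are 0.50, 0.35 and 0.10.

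Some markers of the state of the culture differed between the groups at P under 0.05, in counts that moved with the fit. In bulk RNA, a larger share of cells of a kind and more of an mRNA per cell cannot be told apart. The 11 myotube markers summed to 21320, 17960 and 19450 CPM in the control libraries and 19300, 14240, 16890 and 12310 CPM in the EPS libraries, and 1 of them (Actn2, log2 fold change -0.99) was lower at P under 0.05, against 3.21% of all genes tested. That count was 3 after median-of-ratios scaling (all genes, 4.96%) and in edgeR (all genes, 5.95%), 4 in DESeq2 (all genes, 5.42%) and 2 after quantile normalization (all genes, 4.98%). It was 3 without control replicate 1 (all genes, 3.88%) and 2 without control replicate 3, EPS replicate 1 or EPS replicate 2, where 3.97%, 2.56% and 3.59% of all genes were lower. At an adjusted p under 0.05, 1 of the 11 was called in edgeR (all genes, 1.51%) and 2 in DESeq2 (3.39%). The 7 markers of cycling or undifferentiated myoblasts summed to 349, 351 and 263 CPM against 797, 396, 526 and 1091 CPM, and 5 of 7 were higher at P under 0.05, against 8.40% of all genes tested. These 5 were genes of the cell cycle, Mki67 (1.27), Ccnb1 (1.38), Top2a, Cdk1 and Ccna2, while the myoblast markers Pax7 (-0.12) and Myf5 (0.20) did not pass the test. The count was 5 in edgeR and DESeq2, 2 after median-of-ratios scaling, after quantile normalization and without control replicate 4, EPS replicate 1 or EPS replicate 4, and 3 without control replicate 1, fits in which between 5.19% and 7.55% of all genes were higher. Of these 7 markers, 1 was called at an adjusted p under 0.05 in edgeR (all genes, 1.51%) and 1 in DESeq2 (3.39%). EPS replicate 2 had the lowest sum of these markers among the EPS libraries and the second highest sum of ribosomal protein genes, and EPS replicate 3 was above all controls in these markers. The 3 fibroblast markers summed to between 56.2 and 153 CPM. At P under 0.05, 1 (Pdgfra) was higher, against 8.40% of all genes tested, and 1 (Lum) was lower, against 3.21%. The count of lower fibroblast markers was 2 after median-of-ratios scaling (all genes, 4.96%), in edgeR (5.95%), in DESeq2 (5.42%) and without EPS replicate 2 (3.59%). It was 0 without control replicate 3 or EPS replicate 1, 3 or 4, where between 2.26% and 3.97% of all genes were lower. The endothelial, macrophage and adipocyte markers each summed to less than 1 CPM in every library. The part of these cells in the level of the ribosomal protein genes was not tested.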

How the data were processed

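RNA-seq was carried out on 7 libraries of C2C12 myotubes, 3 control and 4 EPS, grouped by the sample labels. Per the labels and the methods, poly(A) RNA was made into directional libraries, sequenced as paired-end reads of 100 bp and mapped to GRCm38 (STAR 2.5.4b). The values deposited by the authors are CPM on a linear scale, without quantile normalization. The read counter, the annotation and the strand setting are not given in the sources used here. Whole reads were recovered from the CPM (100% whole within 0.01 of a read), with totals between 16616917 and 22120641. Depth was therefore not the main limit on these abundant genes, and intervals for counting error cover nothing else.

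log2(CPM + 1) of the 19144 genes above 0 in at least 1 library was fitted with limma 3.58.1 in R 4.3.3 (empirical Bayes with a trend, Benjamini-Hochberg over all genes). Exact two-sided permutation tests ran over all 35 arrangements of the group labels. edgeR 4.0.16 and DESeq2 1.42.0 on recovered reads were alternatives, beside quantile and median-of-ratios scaling, a filter at a mean of 1 CPM, other pseudocounts (0.1, 0.5), the replicate number as a block, each library left out, and, chosen after seeing the data, a loess correction for length and GC content and edgeR without control replicate 4. The fits were tested on simulated data.

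Members and lists were chosen with earlier results of these data known. Named members are the 6 with the smallest P, the 5 with the largest and smallest change, the 5 highest and 3 lowest in mean, the 5 with the largest SD, the 5 most apart from the family, the stalk genes, Rpl5, Rpl11, Rps6, Rpl3, Rpl10, Rps27a, Rpsa, the paralog pairs and those nearest the minimum; of the lists, the 3 with the smallest P. Members high in control replicate 4, those whose groups did not overlap and the sequences shown were chosen after their values were seen. A few genes are not reported here by name. The authors' table of differential expression was not used.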

Additional observations from a re-analysis of the deposited data

Results flagged for a closer look

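EPS replicate 3 lay far below the other EPS libraries, by the gap between it and its nearest neighbor relative to the range of the 4 libraries, in 9 of the 82 members. Its level was 603.1 CPM for Rpl41, 625.7 for Rplp1, 556.1 for Rpl19, 535.1 for Rpl7a, 448.2 for Rps15, 373.5 for Rpl11, 287.6 for Rps6, 174.1 for Rpl36 and 54.4 for Rpl36al. Chance alone marks about 1 in 20 groups in this way, and these genes vary together within a library, so the 9 are not separate events. The control group, with 3 libraries, was too small for this check, which is why control replicate 4 does not appear here.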

How the results depend on the processing

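The median log2 fold change of the family stayed between 0.37 and 0.70, the ratio of summed CPM between 1.23 and 1.51, and the count of lower members at 0 in every alternative run. The count of members higher at P under 0.05, 31 as reported, was 18 after median-of-ratios scaling and between 6 and 52 when single libraries were left out (6 without control replicate 1, 15, 17 and 14 without EPS replicate 1, 2 or 4, and 52 without EPS replicate 3). With an adjusted p under 0.05, DESeq2 gave 1 member. Members called apart from the family, by P that do not measure the spread of a single member, numbered 0 with a pseudocount of 0.1. They numbered 0 to 2 with single libraries left out. The difference between groups in the log2 ratio of Rpl22l1 to Rpl22 ranged from -0.69 to 0.0103. The log2 fold change was above 0 in every fit for 68 of the 82 members. Rpl3l and Rpl39, left outside the family, had at most 4 reads in a library, and no difference was detectable at those counts. Why Rpl39, a core gene of the large subunit, had 11 reads in all was not tested.

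With the replicate number as a block, 3 of 82 members, a share below the 5.52% of all genes in that fit, and 6 of 76 mitochondrial ribosomal protein genes were higher at P under 0.05, as were 2 of the 7 cycling or myoblast markers, and 0 myotube markers were lower (2.98% of all genes). EPS replicate 2, which has no control of its number, did not enter the difference in the fit with the block. Same-numbered libraries did not deviate together over 12256 genes (correlations 0.25, -0.45 and 0.07), so the numbers were not taken as pairs.

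Directions that turned belonged to members with small changes, and values are given for the members named by the rule. After median-of-ratios scaling 5 members turned, among them Rpl36al (-0.0914), Rpl18 (-0.035), Rpl38 (-0.0288) and Rps27a (-0.0068), and after quantile normalization 1, Rpl36al (-0.0294). In edgeR 8 turned, among them Rpl36al (-0.10), Rpl18 (-0.25), Rpl38 (-0.15), Rplp1 (-0.0411) and Rps27a (-0.10), and in DESeq2 9, among them Rpl36al (-0.11), Rpl18 (-0.27), Rps14 (-0.0075), Rpl38 (-0.16), Rplp1 (-0.0528) and Rps27a (-0.11). With the block 3 turned, Rps3 (0.0723), Rpl36al (-0.0256) and Rpl38 (-0.11), and with the length and GC correction 3, among them Rpl36al (-0.14) and Rps27a (-0.0637). In edgeR without control replicate 4, 3 turned, Rpl22l1 (0.35), Rpl7l1 (0.0242) and Rps3 (0.53).

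Among the members named by the rule and with single libraries left out, the log2 fold change ran from -0.70 to 0.44 for Rpl22l1, from -0.18 to 0.11 for Rpl7l1, from -0.32 to 0.59 for Rps3, from -0.22 to 0.31 for Rpl36al, from -0.25 to 0.67 for Rpl18, from -0.0227 to 0.68 for Rps14, from -0.42 to 0.57 for Rpl38, from -0.045 to 0.73 for Rplp1, from -0.14 to 0.55 for Rps27a, from -0.0138 to 0.43 for Rpl22 and from -0.0845 to 0.56 for Rps27. The highest value came without control replicate 4 in each, and the lowest without control replicate 1, or for Rps3 without control replicate 3. The cause was not tested.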
